A study of Mus musculus with 8 samples.

Results

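The unfolded protein response and the integrated stress response were followed in mouse liver through 32 genes taken from a list of names, of 20164 features tested. They comprise 14 chaperones and folding enzymes of the endoplasmic reticulum (ER), 4 genes of the stress sensors and XBP1, 8 genes of the ATF4 branch and 6 genes of ER-associated degradation. The members were chosen with earlier results of these data known, so counts and shares over them are descriptions and not independent support. Each was found on the array through its RefSeq symbol, and the brightest detected probe stood for the gene. All 32 had a probe that was well above background on all 8 arrays, so none was lost to the filter on dim probes. Liver RNA came from 8 male C57BL/6 mice, bought at 5 weeks of age, with 1 Agilent 1-colour array per mouse and 2 mice per group. The groups were HFD for 9 months, ND for 9 months, HFD for 3 months and ND for 3 months, all fed without restriction. HFD is a high-fat diet of 5.2 kcal/g with 58% fat, 25.5% carbohydrate and 16.4% protein, and ND is a normal diet of 3.8 kcal/g with 4.8% fat, 50.21% carbohydrate and 20.78% protein. Whether these percentages are of weight or of energy is not stated, and the 2 diets may not share a basis. They are therefore not compared nutrient by nutrient. The diets differ in energy content and composition, and no genotype or drug distinguishes the groups.

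Proteins bound for secretion, which liver makes in large amounts, are folded in the ER, and an excess of unfolded protein there is read by 3 membrane sensors. IRE1 splices the mRNA of the transcription factor XBP1, ATF6 is cut to release a transcription factor, and PERK phosphorylates the translation factor eIF2, which slows protein synthesis while the mRNA of ATF4 is translated more. XBP1 and ATF6 act mainly on chaperone and degradation genes. ATF4, which other eIF2 kinases also engage when amino acids are short, acts on genes of amino acid supply, feedback and cell death. The arrays measured mRNA abundance, not splicing, cleavage or phosphorylation.

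Processed signals reached a 75th percentile of 184 to 425 on HFD arrays and 477 to 593 on ND arrays. HFD 9 months mouse 2 gave the 184, and the other HFD arrays 367 to 425. Spots of the same probe had a median SD of 0.19 to 0.209 (log2) on HFD arrays and 0.1 to 0.109 on ND arrays, and 0 spots were saturated. All HFD arrays lay on 1 slide and all ND arrays on the other, so diet and slide cannot be told apart. The 9-month and 3-month arrays lay in different rows, so duration and row cannot be told apart. All mice were bought at the same age, so the longer duration also means older mice, and duration and age cannot be told apart. Levels below are log2 processed signals minus the array's 75th percentile, so that 0 is a signal equal to that percentile. Levels of different genes come from different probes and are not compared. Changes (HFD over ND unless named otherwise, log2 scale, with their SE) come from limma fitted to all 8 arrays together, with n = 2 mice in each group, and a gene is called when its Benjamini-Hochberg adjusted p over all features is under 0.05. The comparisons share arrays, and only 2 arrays per group limit the precision of every value.

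At 9 months the stress genes stood higher on HFD. Of 32 members 4 rose and 0 fell, where 3.59% of all features were called higher and 4.7% lower (8.29% in all). They were Eif2ak3, which encodes the sensor PERK, the chaperone gene Hyou1, and the ATF4 targets Chac1 and Trib3. The fitted change was above 0 for 29 members (90.6%), against 51.4% of all features, with a median of 0.68 against 0.02. Both HFD arrays lay above both ND arrays in 24 members (75%), where 28.8% of all features did so, and below them in 2 members, Atf5 and Asns (6.25%, against 25.8%). At an unadjusted p under 0.05, 20 of 32 members differed, 19 of them higher on HFD, while 28.8% of all features were under that level.

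Which 4 genes were called depended on single arrays. Where an omission below also gave 4, Chac1 was not among them. Without HFD 9 months mouse 2, the array of lowest signal, 7 members were called, with Eif2ak3, Creld2, Dnajb9, Edem1, Manf and Pdia6 higher and Atf5 lower, and the median was 0.87. With another array left out the count was 2 without HFD 9 months mouse 1, 2 without ND 9 months mouse 1, 0 without ND 9 months mouse 2, 1 without either ND 3-month array and 4 without either HFD 3-month array. Over these 8 omissions the median change stayed between 0.61 and 0.87 and the number of members fitted above 0 between 27 and 29.

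**Figure D1:**
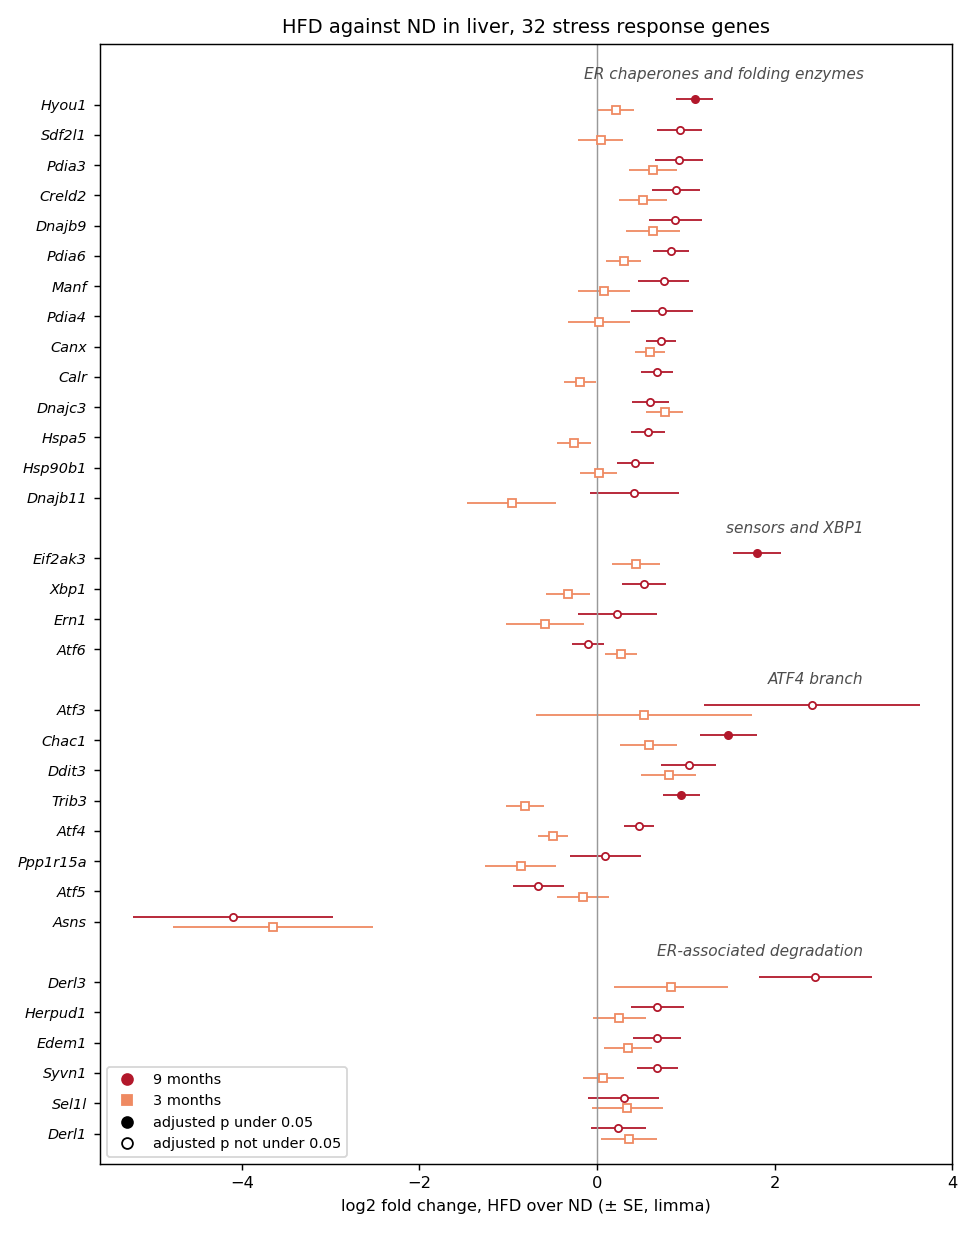
Log2 fold change of HFD over ND for each of the 32 members (x axis, ± SE from limma), grouped by role and ordered by the 9-month value. Circles stand for 9 months and squares for 3 months, filled where the adjusted p was under 0.05. All 14 chaperones lie to the right of 0 at 9 months, from 0.42 to 1.1, and Asns lies far to the left at both durations.

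The chaperones and folding enzymes had the narrowest range of changes of the 4 groups of members at 9 months, but not at 3 months, when they ran from -0.96 to 0.76. At 9 months all 14 had a fitted change above 0, between 0.42 and 1.1 with a median of 0.74, and in 13 of them both HFD arrays lay above both ND arrays, as in 28.8% of all features. Hyou1 alone was called, where 3.59% of all features were called higher. Their signals, summed over the 14 genes on a linear scale relative to the 75th percentile, were 839 and 759 on the HFD arrays and 533 and 480 on the ND arrays. The bright probes of Hspa5, Hsp90b1 and Pdia6 weighed most in these sums. At 3 months the sums were 658 and 658 on HFD and 648 and 564 on ND, with a median change of 0.15. Then 0 of 14 were called, where 5.15% of all features were.

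Hyou1 encodes an ER chaperone of the large Hsp70 type that helps BiP release its client. Its level was -0.35 and -0.03 on the HFD 9-month arrays and -1.33 and -1.25 on the ND 9-month arrays, -0.89 and -1.13 on the HFD 3-month arrays and -1.08 and -1.36 on the ND 3-month arrays. The 2 HFD 9-month mice stood above the other 6, which overlapped across diets at 3 months. The change was 1.1 ± 0.21 at 9 months (2.15-fold, limma adjusted p = 0.0313) and 0.21 ± 0.21 at 3 months (adjusted p = 0.548). With 1 array left out the 9-month change ran from 0.95 to 1.26 and was called in 3 of 8 cases. The call was lost without HFD 9 months mouse 2 (adjusted p = 0.0515), without either ND 9-month array (0.0963 and 0.115) and without either ND 3-month array (0.0822 each).

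Several chaperone promoters carry the ER stress response element, the sequence through which ATF6 and XBP1 are known to act. Its letters, CCAAT and CCACG with 9 bases of any kind between them, were searched on both strands in the RefSeq promoter windows of build GRCm38.p6, which hold 250 bases before each gene's start and 50 from it on. They were found in 7 of the 12 chaperone promoters in the table (58.3%), 2 of 5 of ER-associated degradation (40.0%), 0 of 8 of the ATF4 branch and 0 of 3 of the sensors and XBP1, against 37 of 27025 genes in all (0.137%). In all, 28 of 32 members had a promoter entry, and Hyou1, Manf, Atf6 and Derl1 are named only. Below are the matches of 4 chaperone genes that recur in the values, given 5′ to 3′ on the strand of the gene. Capitals mark the fixed letters of the element, written as CGTGG and ATTGG where it lies on the opposite strand.
Hspa5, chr2:34772000-34772059, plus strand: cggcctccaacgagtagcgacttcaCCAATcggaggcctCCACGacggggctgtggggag
Calr, chr8:84847054-84847113, minus strand: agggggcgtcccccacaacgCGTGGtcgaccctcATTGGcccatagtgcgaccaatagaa
Canx, chr11:50325779-50325838, minus strand: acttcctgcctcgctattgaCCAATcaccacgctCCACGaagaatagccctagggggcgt
Creld2, chr15:88819500-88819559, plus strand: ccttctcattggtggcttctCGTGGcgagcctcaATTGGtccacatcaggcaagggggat
Counted with -1 as the last base before the start, the element spans -65 to -47 in Hspa5 and -162 to -144 in Calr. Hsp90b1, Dnajc3 and Pdia6 are the other chaperone genes with a match. The members were picked as known genes of this response, so the shares describe the list and are not a test. A match describes the letters of the window and does not show that a factor was bound.

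Hspa5 encodes BiP, the main ER chaperone of the Hsp70 family, which also holds the sensors inactive. It was at 7.84 and 7.92 on HFD and 7.42 and 7.20 on ND at 9 months, and at 7.11 and 7.17 on HFD and 7.53 and 7.28 on ND at 3 months. The HFD arrays were thus the higher ones at 9 months and the lower ones at 3 months, with no overlap either time, as also in Xbp1, Atf4 and Trib3 among the members and in 4.16% of all features. Neither change was called (0.57 ± 0.19, adjusted p = 0.108 at 9 months, -0.26 ± 0.19, adjusted p = 0.4 at 3 months). Calr, the soluble lectin chaperone calreticulin, measured 5.61 and 5.63 on HFD and 4.94 and 4.94 on ND at 9 months, against 5.11 and 5.21 on HFD and 5.48 and 5.21 on ND at 3 months. The 2 diets stood apart at 9 months and touched at 3 months. Its changes were 0.68 ± 0.18 (adjusted p = 0.0668) and -0.19 ± 0.18 (adjusted p = 0.534).

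In 6 of the 14 chaperone genes both HFD arrays lay above both ND arrays at both durations. Among all 32 members 11 did so (Dnajb9, Dnajc3, Pdia3, Pdia6, Canx, Creld2, Eif2ak3, Ddit3, Chac1, Herpud1 and Edem1), where 18.8% of all features did. Canx, the membrane-bound lectin chaperone calnexin, was at 5.69 and 5.64 on HFD and 5.02 and 4.85 on ND at 9 months, and at 5.73 and 5.63 on HFD and 5.11 and 5.05 on ND at 3 months. Its 4 HFD arrays lay within a narrow band above the 4 ND arrays. Changes of 0.72 ± 0.17 (adjusted p = 0.0512) and 0.60 ± 0.17 (adjusted p = 0.0897) were close in size and not called. Dnajc3, a DnaJ co-chaperone that also inhibits eIF2 kinases, was at 4.44 and 4.25 on HFD and 3.78 and 3.71 on ND at 9 months, and at 4.45 and 4.10 on HFD and 3.68 and 3.34 on ND at 3 months. Here too every HFD array was above every ND array. Changes were 0.60 ± 0.21 (adjusted p = 0.131) and 0.76 ± 0.21 (adjusted p = 0.0911).

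Dnajb9, a DnaJ co-chaperone of BiP that restrains IRE1, was at 4.13 and 3.31 on HFD and 2.96 and 2.72 on ND at 9 months, and at 3.54 and 3.5 on HFD and 3.04 and 2.74 on ND at 3 months. The 2 HFD 9-month mice lay further from each other than the lower of them from the ND mice. Changes were 0.88 ± 0.30 (adjusted p = 0.116) and 0.63 ± 0.30 (adjusted p = 0.235), and a second, dimmer probe differed the same way at both durations (1.23 and 0.51). Pdia3, a disulfide isomerase that works with calnexin and calreticulin, was at 4.95 and 4.54 on HFD and 4.05 and 3.58 on ND at 9 months, and at 4.92 and 4.47 on HFD and 4.01 and 4.11 on ND at 3 months. The gap between diets was similar at both durations, at 0.92 ± 0.27 (adjusted p = 0.0856) and 0.63 ± 0.27 (adjusted p = 0.198). For Pdia6, a disulfide isomerase that also acts on the sensors, levels were 7.38 and 6.98 on HFD and 6.36 and 6.35 on ND at 9 months, and 7.57 and 7.35 on HFD and 7.23 and 7.10 on ND at 3 months. The ND 9-month arrays were the low ones, below both 3-month groups. Changes were 0.83 ± 0.20 (adjusted p = 0.0599) and 0.30 ± 0.20 (adjusted p = 0.395), and a second probe gave 0.86 and 0.45. Creld2, an ER-stress-inducible protein with disulfide isomerase activity, was at 6.34 and 5.68 on HFD and 5.12 and 5.12 on ND at 9 months, and at 5.05 and 5.12 on HFD and 4.80 and 4.33 on ND at 3 months. The HFD 3-month and ND 9-month arrays reached the same level, with the HFD 9-month arrays above them and the ND 3-month arrays below. Changes were 0.89 ± 0.27 (adjusted p = 0.0964) and 0.52 ± 0.27 (adjusted p = 0.276).

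The remaining 5 chaperones were fitted higher on HFD at 9 months and near or below 0 at 3 months, and none was called. Sdf2l1, a partner of ER DnaJ proteins, differed by 0.93 ± 0.25 at 9 months (adjusted p = 0.0691) and 0.04 ± 0.25 at 3 months. Manf, a secreted ER stress protein, differed by 0.75 ± 0.29 and 0.08 ± 0.29, and the disulfide isomerase gene Pdia4 by 0.73 ± 0.35 and 0.02 ± 0.35. Hsp90b1, the ER member of the Hsp90 family, differed by 0.43 ± 0.21 and 0.02 ± 0.21. Dnajb11, a BiP co-chaperone, was the 1 chaperone whose 9-month arrays overlapped, with 0.31 and 1.56 on HFD and 0.13 and 0.89 on ND, and it differed by 0.42 ± 0.50 at 9 months and -0.96 ± 0.50 at 3 months. Its promoter holds the compact form of the element, ATTGG and CCACG with 1 base between them, just after the start.

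**Figure D2:**
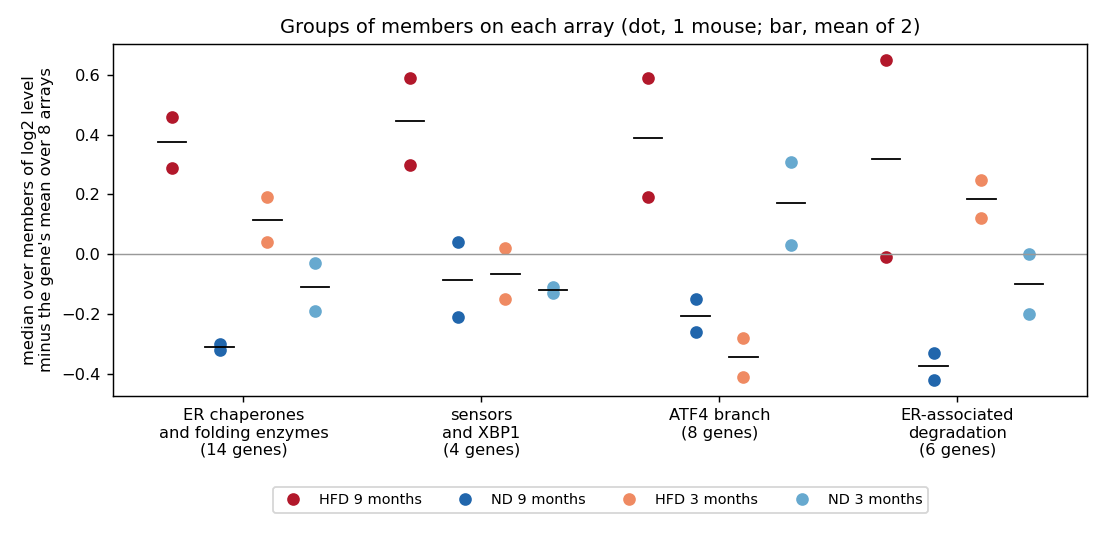
Median over the members of each role of the log2 level minus the gene's mean over the 8 arrays (y axis), with 1 dot per mouse and a bar for the mean of the 2 mice, in the order HFD 9 months, ND 9 months, HFD 3 months, ND 3 months. Chaperones on HFD 9-month arrays stand at 0.46 and 0.29 against -0.3 and -0.32 on ND 9-month arrays, and the ATF4 branch on HFD 3-month arrays lies below that on ND 3-month arrays.

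Of the sensors, Eif2ak3 had the smallest p of the 32 members at 9 months. Its level was 2.01 and 2.65 on HFD and 0.49 and 0.57 on ND at 9 months, and 1.26 and 1.29 on HFD and 1.03 and 0.64 on ND at 3 months. All 4 HFD arrays lay above all 4 ND arrays, and the HFD 9-month arrays lay above the rest. The change was 1.80 ± 0.27 at 9 months (3.49-fold, limma adjusted p = 0.0169) and 0.44 ± 0.27 at 3 months (adjusted p = 0.333). With 1 array left out it ran from 1.48 to 2.13 and remained called in 6 of 8 cases, the exceptions being without ND 9 months mouse 1 (adjusted p = 0.0586) and without ND 9 months mouse 2 (adjusted p = 0.0747).

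None of the other 3 genes of this group was called at either duration. Xbp1, the transcription factor downstream of IRE1, was at 7.55 and 7.26 on HFD and 7.14 and 6.62 on ND at 9 months, and at 7.25 and 6.86 on HFD and 7.40 and 7.36 on ND at 3 months. As with Hspa5, the HFD arrays were above at 9 months and below at 3 months. Its changes were 0.53 ± 0.25 (adjusted p = 0.225) and -0.33 ± 0.25 (adjusted p = 0.442), and the probe does not part spliced from unspliced mRNA as far as the files tell. Ern1, the gene of IRE1, was at 0.86 and 2.22 on HFD and 1.34 and 1.28 on ND at 9 months, so that the HFD mice lay on both sides of the ND mice (0.23 ± 0.44, adjusted p = 0.761). At 3 months it was at 0.78 and 0.31 on HFD and 1.07 and 1.19 on ND, with both HFD mice the lower ones (-0.59 ± 0.44, adjusted p = 0.427). Atf6 differed by -0.10 ± 0.18 at 9 months and 0.27 ± 0.18 at 3 months.

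The ATF4 branch had the widest range of changes at 9 months, from -4.1 to 2.42, with members on both sides of 0. At 9 months 2 of 8 rose (Chac1 and Trib3) and 0 fell, where 3.59% of all features were called higher and 4.7% lower. The median change was 0.71. Both HFD arrays were above both ND arrays in 5 and below in 2, as in 28.8% and 25.8% of all features. At 3 months 0 of 8 were called, where 5.15% of all features were, and the median was -0.33. The HFD arrays were then above in 2 and below in 5, as in 35.3% and 35.6% of all features. The median of the centred levels was 0.19 and 0.59 on HFD 9-month arrays, -0.15 and -0.26 on ND 9-month arrays, -0.28 and -0.41 on HFD 3-month arrays and 0.03 and 0.31 on ND 3-month arrays.

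Atf4 itself, the transcription factor of the branch, was at 6.69 and 6.85 on HFD and 6.35 and 6.23 on ND at 9 months, and at 6.20 and 6.13 on HFD and 6.59 and 6.75 on ND at 3 months. The order of the diets turned between the durations without overlap. Changes were 0.47 ± 0.17 (adjusted p = 0.137) and -0.50 ± 0.17 (adjusted p = 0.137). A second, dimmer Atf4 probe was lower on HFD at both durations, by -0.6 at 9 months and -0.76 at 3 months, so the 2 probes disagree at 9 months.

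Trib3, a pseudokinase induced by ATF4 that feeds back on it, followed the same order. Its level was 3.72 and 3.67 on HFD and 2.73 and 2.75 on ND at 9 months, and 2.81 and 2.34 on HFD and 3.31 and 3.45 on ND at 3 months. The HFD arrays were the higher ones at 9 months and the lower ones at 3 months. The change was 0.95 ± 0.21 at 9 months (1.94-fold, adjusted p = 0.0441) and -0.81 ± 0.21 at 3 months (adjusted p = 0.0759). With the normexp background correction the 9-month change was 0.58 ± 0.17 (adjusted p = 0.0768), and it was called in 2 of 8 cases with 1 array left out (0.93 to 0.98), those without either HFD 3-month array. The adjusted p was 0.063 to 0.155 when any one of the other 6 arrays was left out.

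Chac1 degrades glutathione and is an ATF4 target. It was at 2.19 and 1.98 on HFD and 0.97 and 0.23 on ND at 9 months, and at 3.24 and 2.77 on HFD and 2.65 and 2.20 on ND at 3 months. HFD arrays were above ND arrays at each duration, and the 3-month levels were above the 9-month levels on both diets. The change was 1.48 ± 0.32 at 9 months (2.80-fold, adjusted p = 0.0443) and 0.58 ± 0.32 at 3 months (adjusted p = 0.302), and it remained called in 1 of 8 cases with 1 array left out (1.11 to 1.85), that without ND 9 months mouse 1, while the adjusted p was 0.0588 to 0.163 in the other 7.

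Ddit3, which encodes the death-linked factor CHOP, was at 0.44 and 0.15 on HFD and -0.68 and -0.78 on ND at 9 months, and at -0.24 and -0.55 on HFD and -0.79 and -1.63 on ND at 3 months. All 4 HFD arrays were above all 4 ND arrays, with changes of 1.03 ± 0.31 (adjusted p = 0.0927) and 0.81 ± 0.31 (adjusted p = 0.165). Asns, the ATF4 target that makes asparagine, went the other way. Its level was -1.65 and 0.03 on HFD and 1.59 and 4.99 on ND at 9 months, and -2.29 and -1.11 on HFD and 2.09 and 1.82 on ND at 3 months. Every HFD array was below every ND array, and the ND 9-month mice lay far apart. The differences were -4.10 ± 1.13 (adjusted p = 0.0757) and -3.65 ± 1.13 (adjusted p = 0.111), the widest of any member and not called.

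Atf5, a transcription factor related to ATF4, was at 7.90 and 8.77 on HFD and 9.04 and 8.94 on ND at 9 months, and at 7.59 and 7.56 on HFD and 7.77 and 7.70 on ND at 3 months. It was below ND on every HFD array at each duration, and above its 3-month levels on all 9-month arrays. The changes were -0.66 ± 0.29 (adjusted p = 0.2) and -0.16 ± 0.29 (adjusted p = 0.759). Asns and Atf5 were the 2 members lower at both durations, as 18.4% of all features were. Ppp1r15a, which helps dephosphorylate eIF2, was at 2.08 and 3.14 on HFD and 2.39 and 2.66 on ND at 9 months with the diets overlapping (0.09 ± 0.40, adjusted p = 0.912). At 3 months it was at 1.82 and 1.97 on HFD and 2.39 and 3.12 on ND, with both HFD mice the lower ones (-0.86 ± 0.40, adjusted p = 0.229). The stress transcription factor gene Atf3 had the widest spread between mice at 3 months on ND, with -3.73 and 0.27, and its differences of 2.42 ± 1.22 at 9 months (adjusted p = 0.245) and 0.53 ± 1.22 at 3 months (adjusted p = 0.808) were not called.

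The letters of the CARE element, TGATG and AA with 1 base between them, through which ATF4 acts together with C/EBP factors, were found in 4 of 8 promoters of the ATF4 branch (Atf3, Chac1, Trib3 and Asns), in 0 of 12 of the chaperones and in Herpud1, against 4.51% of all genes. Genes were placed in this branch for their known link to ATF4, so its share too describes the list and is not a test. The match of Trib3 lies after its start. Those of Chac1 and Asns are shown because the 2 genes share the element while Chac1 was higher and Asns lower on HFD arrays at both durations. Capitals mark the fixed letters, as the reverse complement in Chac1, where the element lies on the opposite strand.
Chac1, chr2:119351023-119351082, plus strand: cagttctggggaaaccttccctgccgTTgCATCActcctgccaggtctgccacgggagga
Asns, chr6:7693210-7693269, minus strand: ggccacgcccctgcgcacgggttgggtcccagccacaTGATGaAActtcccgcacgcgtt
No match of 1 of the 3 motifs overlapped a match of another in any member promoter.

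**Figure D3:**
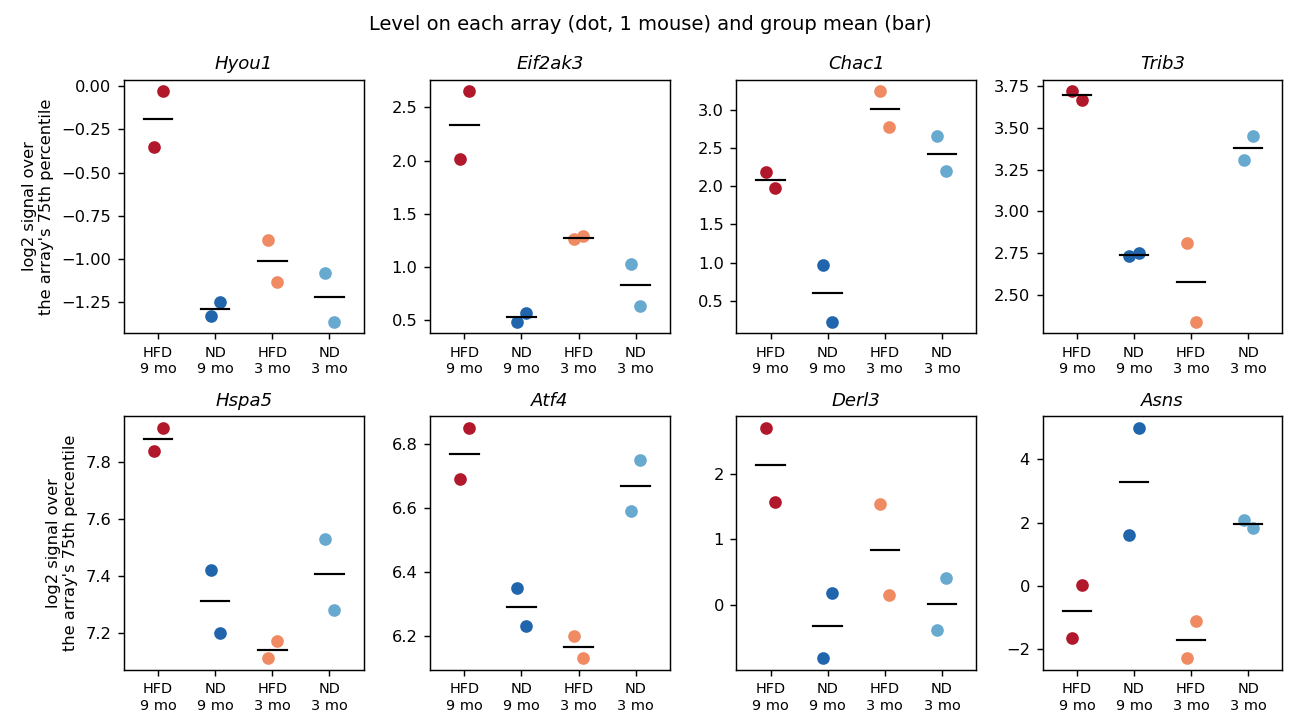
Level of 8 members on each array (y axis, log2 signal over the array's 75th percentile, with its own range in each panel, 1 dot per mouse and a bar for the group mean), in the order HFD 9 months, ND 9 months, HFD 3 months, ND 3 months. Hyou1 and Eif2ak3 are highest on the 2 HFD 9-month arrays, Trib3, Hspa5 and Atf4 are above ND at 9 months and below it at 3 months, and Asns is lower on all HFD arrays.

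ER-associated degradation was higher on HFD at both durations by fitted sign, but 0 of 6 members were called at either. Of all features 8.29% were called at 9 months and 5.15% at 3 months. All 6 changes were above 0, with a median of 0.68 at 9 months and 0.35 at 3 months, where 51.4% and 49.2% of all features were above 0. Both HFD arrays were above both ND arrays in 4 members each time, as in 28.8% of all features at 9 months and 35.3% at 3 months. At 9 months all 6 genes were higher in HFD mouse 1 than in HFD mouse 2, by a median of 0.79, where 48.4% of all features were higher in mouse 1 and the median was -0.02.

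Derl3, of the derlin family that helps move misfolded protein out of the ER, had the largest 9-month difference of the group. It was at 2.70 and 1.57 on HFD and -0.82 and 0.17 on ND at 9 months, and at 1.53 and 0.14 on HFD and -0.39 and 0.41 on ND at 3 months. The diets stood apart at 9 months and overlapped at 3 months (2.46 ± 0.64, adjusted p = 0.0658, and 0.83 ± 0.64, adjusted p = 0.444). Herpud1, a scaffold of the degradation complex, was at 7.74 and 7.35 on HFD and 6.47 and 7.26 on ND at 9 months, and at 7.09 and 7.03 on HFD and 6.73 and 6.90 on ND at 3 months. HFD arrays lay above ND arrays each time, by little in the case of ND 9 months mouse 2 (0.68 ± 0.30, adjusted p = 0.193, and 0.25 ± 0.30, adjusted p = 0.621). Edem1, a lectin that hands misfolded glycoproteins to degradation, was at 3.53 and 2.84 on HFD and 2.49 and 2.53 on ND at 9 months, and at 3.49 and 3.62 on HFD and 3.40 and 3.03 on ND at 3 months. The ND 9-month arrays were the low ones (0.68 ± 0.27, adjusted p = 0.166, and 0.35 ± 0.27, adjusted p = 0.451).

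Syvn1, the ubiquitin ligase of the complex, differed by 0.68 ± 0.23 at 9 months (adjusted p = 0.12) and 0.07 ± 0.23 at 3 months. Its partner gene Sel1l differed by 0.30 ± 0.40 and 0.34 ± 0.40, and Derl1 by 0.24 ± 0.31 and 0.36 ± 0.31. A second Derl1 probe gave 0.08 and -0.19, so the probes disagree at 3 months. Derl3 and Syvn1 carry the ER stress response element, while Herpud1 carries its compact form, seen in 0.0444% of all promoters, and a CARE match. Derl3 and Herpud1 are shown with the fixed letters in capitals.
Derl3, chr10:75893222-75893281, plus strand: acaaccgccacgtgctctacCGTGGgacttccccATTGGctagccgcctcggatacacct
Herpud1, chr8:94386299-94386398, plus strand: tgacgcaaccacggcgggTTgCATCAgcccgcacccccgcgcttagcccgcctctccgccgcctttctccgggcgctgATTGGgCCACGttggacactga

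At 3 months 0 of 32 members were called by limma, where 5.15% of all features were (1.47% higher, 3.68% lower), and 6 were under an unadjusted p of 0.05, 3 of them lower. Other fits called 1 member with normexp (Trib3, lower), 3 in the value table of the authors (Canx and Dnajc3 higher, Trib3 lower) and 1 from the 4 arrays alone (Asns, lower). The fitted change was above 0 in 22 members (68.8%, against 49.2% of all features), with a median of 0.23 against -0.01 over all features. Both HFD arrays were above both ND arrays in 14 members (43.8%), against 35.3% of all features, and below in 9 (28.1%), against 35.6%. These shares leaned the same way as at 9 months but lay nearer to those of all features.

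The difference between the 2 diet effects was tested as an interaction. It was called in 0 members and 0% of all features by limma, while 7 members and 7.68% of features were under an unadjusted p of 0.05. The fitted interaction was above 0 in 26 members (81.2%), against 55.9% of features, with a median of 0.63 against 0.07. Trib3 had the smallest p (1.76 ± 0.29, adjusted p = 0.28). It is therefore not shown that any member responded differently to HFD at 9 and at 3 months.

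On HFD the 9-month arrays lay above the 3-month arrays in 18 members (56.2%), against 21.4% of all features, and below them in 1, Chac1. The median change of 9 over 3 months on HFD was 0.5, against 0 over all features. None of the 32 was called by limma, where 0.00992% of features were, and 9 were under an unadjusted p of 0.05, as 15.4% of features were. On ND 0 members were called, where 1.05% of features were, and 6 were under an unadjusted p of 0.05, as 16% of features were. Both ND 9-month arrays were below both ND 3-month arrays in 13 members (40.6%), against 37.5% of all features, the fitted change was above 0 in 9 (28.1%, against 42.3%), and the median was -0.22 against -0.08. In 5 members (Calr, Eif2ak3, Xbp1, Atf4 and Trib3) the arrays of the 2 durations lay apart in opposite order on HFD and on ND, as in 5.62% of all features.

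Other genes of the same pathways had medians nearer to that of all features at 9 months, but some of their lists also leaned to higher levels on HFD. Of all features 3.59% were called higher, 4.7% lower, and 51.4% were fitted above 0. Both HFD arrays lay above both ND arrays in 28.8% of features and below in 25.8%. Of 22 other ER folding factors 3 rose and 1 fell, with a median of 0.30. By fitted sign 18 were above 0 and 4 below, and the HFD arrays lay above the ND arrays in 12 and below in 1. Those that rose were the ER reductase gene Dnajc10 (0.96 ± 0.17, adjusted p = 0.0278), Serp1, which encodes a small protein of the translocon (0.92 ± 0.17), and Tmem258, a subunit of the oligosaccharyltransferase (0.89 ± 0.17). Fkbp11, a peptidyl-prolyl isomerase, was not well above background on the HFD 9-month arrays and was at least 3.21-fold lower there (adjusted p = 0.0132). This bound sets the mean of the ND 9-month arrays against the lowest signal well above background, or the probe's own where higher, on each HFD array. Of 14 genes of the oligosaccharyltransferase and N-glycan processing 1 rose, Rpn1 (0.72 ± 0.16, median 0.29). Of 19 tested genes of COPII and ER-Golgi transport 1 rose, Arfgap3 (1.06 ± 0.24, median 0.15), and Kdelr3 was not above background on any array.

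For 20 genes of the translocon and signal peptidase the median was 0.31 and 0 were called, with the smallest p for Ssr3 (0.82 ± 0.22, adjusted p = 0.0686). Of these 20, 14 were fitted above 0 and 6 below, and the HFD arrays lay above the ND arrays in 10 and below in 0. The 20 other genes of ER-associated degradation had a median of 0.01 and 0 calls, and Ngly1, which strips glycans from misfolded protein, came closest (0.67 ± 0.19, adjusted p = 0.0762). Their HFD arrays lay above the ND arrays in 7 and below in 5. Of 30 other ATF4 and integrated stress targets 1 rose and 1 fell, with a median of 0.03, and the HFD arrays lay above the ND arrays in 8 and below in 5. Psat1, of serine synthesis, rose by 2.21 ± 0.42 (adjusted p = 0.0311), while the neutral amino acid transporter gene Slc1a4 fell (-0.96 ± 0.22, adjusted p = 0.0484). Among 12 genes of eIF2, eIF2B and the other eIF2 kinases 0 were called, with a median of -0.05, and Eif2ak4, the kinase GCN2 that senses amino acid shortage, had the smallest p (0.69 ± 0.16, adjusted p = 0.0524). The 13 membrane-bound transcription factors and their proteases had a median of 0.25 and 0 calls, with Mbtps1, the protease that cuts ATF6, closest (0.53 ± 0.17, adjusted p = 0.0999). In this list the HFD arrays lay above the ND arrays in 8 genes and below in 1.

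Chaperones of other compartments had medians at or below that of all features at 9 months. The 14 cytosolic heat shock genes had a median of -0.16 and 0 calls at 9 months (smallest p for Hsph1, -0.94 ± 0.24, adjusted p = 0.0657). Of 11 mitochondrial chaperones and proteases 2 fell, the protease genes Clpp (-1.12 ± 0.20) and Clpx (-0.96 ± 0.19), with a median of 0.01. At 3 months the medians of all 10 lists lay between -0.06 and 0.19, and 1.47% of all features were called higher and 3.68% lower. There Ngly1 rose (0.97 ± 0.19, adjusted p = 0.0417), Fkbp11 fell (-1.41 ± 0.28, adjusted p = 0.0469) and Clpp fell (-1.26 ± 0.20, adjusted p = 0.0292).

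**Figure D4:**
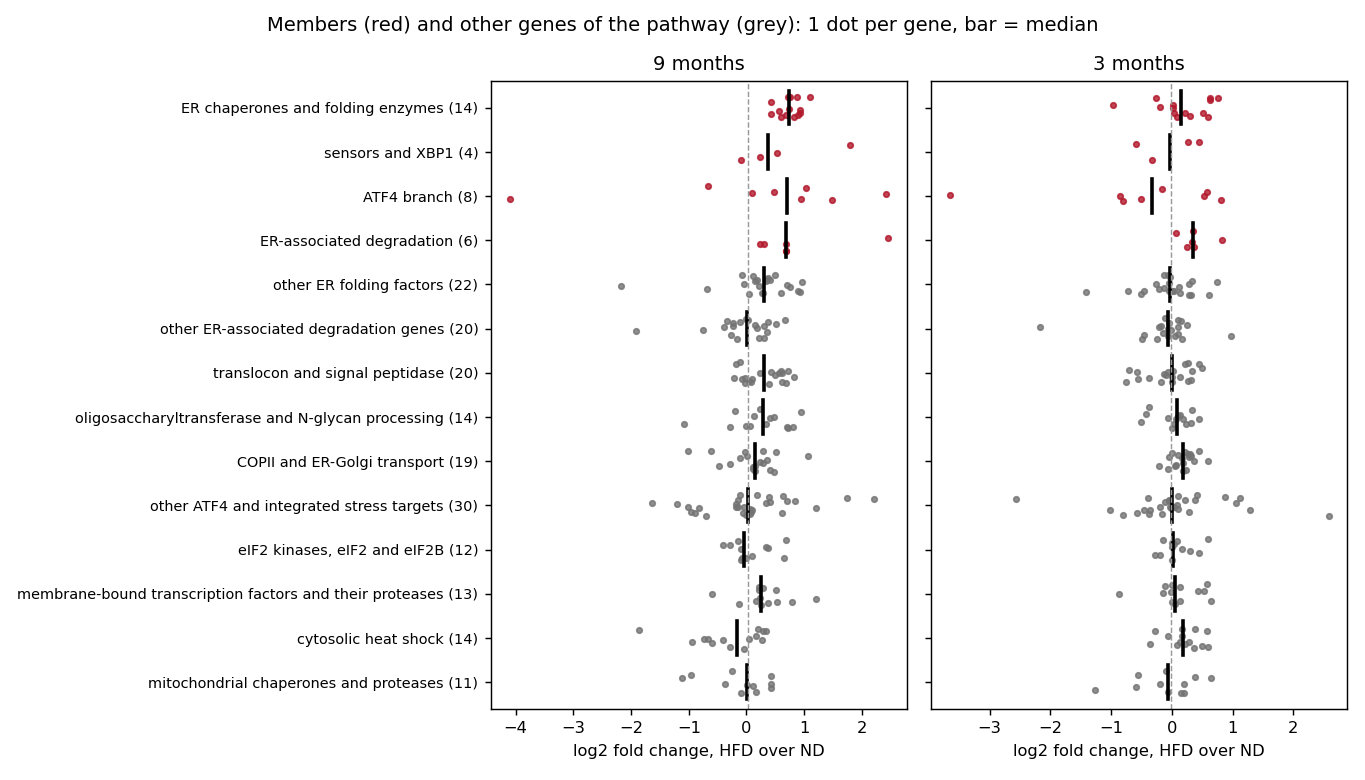
Log2 fold change of HFD over ND (x axis) at 9 months on the left and 3 months on the right, with 1 dot per gene and a bar for the median of each list. Red dots are the members by role, grey dots the other lists, with the number of genes tested in brackets, and the dashed line is the median of all features. At 9 months the medians of the 4 groups of members lie between 0.38 and 0.74 and those of the other lists between -0.16 and 0.31.

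Whole liver was measured, so more or fewer cells of a type and more or less RNA per cell cannot be told apart. For the marker counts below, 3.59% of all features were called higher and 4.7% lower at 9 months. All 10 hepatocyte markers were above background on all arrays, with 0 called at 9 months, a median change of -0.07 and a summed level of 4540 and 7880 on HFD and 6070 and 6310 on ND at 9 months. At 3 months their sum was 4480 and 4430 on HFD and 6470 and 7250 on ND (median -0.54, 0 called). Of 8 markers of lipid-associated macrophages 5 rose at 9 months (median 2.29), with sums of 67.7 and 63.5 on HFD and 23 and 14.6 on ND at 9 months, and 18.4 and 22.7 on HFD and near 11 on both ND arrays at 3 months. Trem2, the receptor that marks these cells, rose by 4.41 ± 0.34 at 9 months. Of 9 tested stellate cell and fibroblast markers 4 rose at 9 months, among them Col1a1 (3.35 ± 0.38) and Col3a1 (2.92 ± 0.34). All 9 were fitted above 0, and in 8 both HFD arrays lay above both ND arrays, as in 28.8% of all features. The sums of the list overlapped between diets, with 115 and 99.1 on HFD and 105 and 80.4 on ND. Dcn alone gave most of them, at 6.61 and 6.43 on HFD and 6.64 and 6.26 on ND. The part of these cells in the stress gene values was not tested.

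Markers of other cell types, among them plasma and acinar cells that are rich in ER, were looked at too, and several were not above background. Of 10 B and plasma cell markers 7 were tested and 0 called at 9 months, with Cd79a, Tnfrsf17 and Blk not above background on any array and sums of 2.13 and 3.64 on HFD and 4.32 and 2.05 on ND. Of 10 pancreatic acinar markers 3 were tested and 0 called, with Prss1, Prss2, Cpa1, Cpb1 and Pnlip not above background on any array and sums of 1.8 and 1.79 on HFD and 1.59 and 1.56 on ND. Of 8 adipocyte markers 4 were tested and 2 rose at 9 months, Fabp4 (3.25 ± 0.45) and Car3 (2.9 ± 0.17), both of which liver cells also express, while Adipoq, Plin1 and Lep were not above background on any array. Of macrophage and Kupffer cell markers 0 of 9 were called at 9 months, with sums of 137 and 214 on HFD and 416 and 130 on ND. Of 5 tested T and NK cell markers 1 fell at 9 months, Cd4 (-3.00 ± 0.35, adjusted p = 0.0108), and Cd8a, Klrb1c and Ncr1 were not above background on any array. The sums were 28.5 and 33.8 on HFD and 227 and 163 on ND. Cd4 alone gave most of them, at 4.46 and 4.55 on HFD and 7.76 and 7.24 on ND. By fitted sign 2 of the 5 were above 0 and 3 below, with a median of -0.42. Of 5 tested neutrophil markers 1 fell, Elane (-3.53 ± 0.73, adjusted p = 0.0395), with sums of 108 and 124 on HFD and 108 and 227 on ND. The list as a whole did not follow Elane, with 3 of 5 fitted above 0, 2 below and a median of 0.96. Of 10 markers of sinusoidal endothelium 0 were called at 9 months (median 0.49), with sums of 63.8 and 70.3 on HFD and 53.4 and 42.7 on ND. Of 4 tested cholangiocyte markers 0 were called (median -0.06), with sums of 2.6 and 1.78 on HFD and 1.43 and 1.56 on ND, and Krt7 and Epcam were not above background on any array. The part of these cells in the stress gene values was not tested either.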

How the data were processed

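Liver RNA of 8 mice, 2 per group by diet and duration, was labelled with Cy3 and hybridised to 1 array each. Per the file headers, the signal deposited as processed is a background-subtracted, detrended intensity from Agilent Feature Extraction 10.7.1.1 (version per the submitters' processing notes). The deposited flags (well above background, outlier) are other values, 0 or 1 per spot. The value table deposited by the authors holds log2 values that rank each array as its median signal intensity does (Spearman's rho of 1, column medians of 7.14); how it was scaled is not given in the sources used here.

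Control spots (3671) and outlier spots were left out, log2 processed signals were centred on each array's 75th percentile (pseudocount 0), and replicate spots were averaged. Probes entered if both arrays of any group showed them well above background (25800 of 55681). The brightest kept probe stood for a gene, giving 20164 features, 12884 of them with a symbol. RefSeq symbols (GRCm38.p6) were matched for 26056 probes through the accession in the files, and the same table gave the promoters. The group means were fitted with limma 3.58.1 (R 4.3.3, package data.table, version 1.17.8) on all 8 arrays, on 4 residual and 2.32 prior degrees of freedom, with Benjamini-Hochberg adjustment over all features and a threshold of 0.05. According to the labels, each array is a separate mouse. Where a left-out array leaves 1 in a group, that array is assumed to vary like the others.

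Members and lists were chosen with earlier results of these data known, so counts over them are descriptions. Values of every array are given for members called in a comparison, or whose HFD and ND arrays lay apart in the same direction at both durations. From each other list up to 4 called genes of smallest p are named, or the 1 of smallest p, and up to 3 of a marker list. Values per array of Hspa5, Calr, Xbp1, Atf4, Derl3 and a few others were added after their values were seen. Alternatives were quantile normalization, normexp with an offset of 50 on median signals, the table of the authors, other filters, the mean of a gene's probes, a replicate block, trend and robust moderation, the 4 arrays compared alone, and leaving out each array. On simulated data with 20164 features for HFD versus ND at 9 months, the fit found 1 of 67 features changed by a log2 of 1, 42 of 67 by 2 and 59 of 66 by 3, with 3 false calls. Far fewer features were changed there than the 1671 called in the data, which makes the adjustment stricter. The simulated counts therefore do not give the share of changes missed in the data. Promoter searches and plots used Python 3.11.15 with pandas 2.3.3, numpy 2.4.6 and matplotlib 3.10.9.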

Additional observations from a re-analysis of the deposited data

Results flagged for a closer look

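In 4 of 32 members both HFD arrays lay on opposite sides of both ND arrays at 9 and at 3 months, as in 4.16% of all features. The interaction of diet and duration was tested for each with limma, and none passed after adjustment. Hspa5 was higher on HFD by 0.57 at 9 months and lower by -0.26 at 3 months, an interaction of 0.83 ± 0.26 (adjusted p = 0.558). Xbp1 gave 0.53 and -0.33 (0.86 ± 0.36, adjusted p = 0.652). For Atf4 the differences were 0.47 and -0.5 (0.97 ± 0.24, adjusted p = 0.453), and its second probe did not turn. For Trib3 they were 0.95 and -0.81 (1.76 ± 0.29, adjusted p = 0.28).

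The 9-month arrays lay above the 3-month arrays on HFD and below them on ND in 5 members, while 5.62% of all features turned in this way in either direction. They were Calr (0.46 on HFD and -0.41 on ND, an interaction of 0.86 ± 0.25, adjusted p = 0.541), Eif2ak3 (1.05 and -0.31, 1.36 ± 0.38, adjusted p = 0.514), Xbp1 (0.35 and -0.5), Atf4 (0.6 and -0.37) and Trib3 (1.12 and -0.64), the last 3 with the interactions given above.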

How the results depend on the processing

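The median change of the members, the number fitted above 0 and the number whose HFD arrays lay above the ND arrays were added as results after the data were seen. Under the alternatives other than omissions, the median was 0.62 to 0.74 at 9 months and 0.15 to 0.29 at 3 months, the number above 0 was 26 to 29 and 21 to 25, and the number above ND was 20 to 24 and 14 to 18. No called member reversed under any alternative run. With all probes tested, the median of all features was 0.3 at 9 months and 0.25 at 3 months, while those of the members stayed at 0.68 and 0.23.

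Of 32 members at 9 months, 10 were called in the table of the authors, 9 with trend and robust moderation, 2 with a replicate block, and 0 with no filter (37084 features tested, 14 members at an unadjusted p under 0.05) or with the 4 arrays alone (fewer arrays, 15 members). Mouse numbers do not pair the groups (correlations of -0.018 to 0.137), and the block left Chac1 and Eif2ak3 called (Hyou1 adjusted p = 0.0524, Trib3 adjusted p = 0.0656). At 3 months 1 member was called with normexp, 3 in the table of the authors and 1 with the 4 arrays alone. Over time, 1 was called on HFD in the table of the authors, and on ND 1 each with normexp, the table of the authors, the filter on all arrays and trend and robust moderation. The cause of these changes in calls was not tested, apart from the number of features or arrays where it is given.

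Of all features, no filter left 255 called for diets at 9 months (80 higher and 175 lower), 72 at 3 months (13 higher and 59 lower), 0 for time on HFD and 5 for time on ND. With the 4 arrays alone the counts were 0 (3909 at an unadjusted p under 0.05), 2748 (1140 higher and 1608 lower), 0 and 137. For time on HFD (2 called) they were 60 with quantile normalization, 34 with normexp, 70 in the table of the authors, 16 with the filter on all arrays, 19 with trend and robust moderation and 0 with the replicate block, which gave 28 for time on ND. The interaction was called in 1 feature each with quantile normalization, the filter on all arrays and trend and robust moderation.

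With each array left out in turn, members called ran from 0 to 7 for diets at 9 months, 0 to 1 at 3 months (Asns, without either ND 9-month array), 0 to 3 for time on HFD (Atf5, Eif2ak3 and Ern1, without HFD 9 months mouse 1) and 0 to 1 for time on ND (Atf5, without either HFD 9-month array). Features called ran from 364 to 2511, 0 to 2231, 0 to 1937 and 0 to 340 in the same order, and 0 to 3 for the interaction. The median ran from 0.61 to 0.87 at 9 months and 0.12 to 0.28 at 3 months.

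Depth is not counted on arrays. The 2 arrays per group and the larger spot variation and lower signal on the HFD slide limit every value. So does the fact that diet follows slide, while duration follows row and the age of the mice.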

Other observations

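Of 20 genes of the translocon and signal peptidase, which bring proteins into the ER, 2 fell on ND at 9 against 3 months, where 0.61% of all features were called lower, and 18 did not pass the test. All 20 had a fitted change below 0 (median -0.49, against -0.08 over all features, of which 42.3% were above 0), and in 18 of them both 9-month arrays lay below both 3-month arrays, as in 37.5% of all features. Both genes that fell encode subunits of the Sec61 channel. Sec61b was at 5.91 and 5.78 on ND 9-month arrays and 6.98 and 7.05 on ND 3-month arrays (-1.17 ± 0.18, limma adjusted p = 0.0488), and Sec61g fell by 1.42 on the log2 scale (adjusted p = 0.0435). On HFD the median of the same list over time was -0.35, with 0 of 20 called.

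Of 14 cytosolic heat shock genes 1 rose on ND at 9 against 3 months, where 0.441% of all features were called higher, and 13 did not pass. By fitted sign 13 of 14 were above 0 (median 0.57), against 42.3% of all features (median -0.08). The gene that rose was Hsph1, of the Hsp110 family (4.46 and 4.08 at 9 months against 2.75 and 2.45 at 3 months, 1.67 ± 0.24, adjusted p = 0.0435). Fgf21, a liver hormone gene and ATF4 target, was at 3.81 and 2.66 on ND 9-month arrays and -2.43 and -1.27 on ND 3-month arrays, and rose by 5.08 ± 0.59 (adjusted p = 0.0287). It was the 1 gene called of the 30 other ATF4 and integrated stress targets tested. Of that list 13 were fitted above 0 and 17 below on ND, with a median of -0.05.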
